A study of Mus musculus with 2 samples.

Results

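Among cells sorted as regulatory T cells (Tregs) from mouse tumours, 580 of 7868 barcodes carried the transcripts of a CD8 T cell. They were chosen on raw UMIs (unique molecular identifiers, 1 per captured transcript) among barcodes with at least 500 genes and under 10% mitochondrial UMIs. A barcode had to hold at least 3 UMIs of Cd8a and Cd8b1, the chains of the CD8 co-receptor, and at least 2 of the CD3 chains Cd3d, Cd3e and Cd3g. It could hold at most 3 UMIs of the macrophage genes Lyz2, C1qa and C1qb and at most 1 of the natural killer (NK) genes Ncr1 and Klrb1c. The study profiled Tregs from tumour tissue of C57BL/6 mice 8 to 12 weeks old by droplet sequencing of transcript 3' ends. Lymphocytes from digested tumours were enriched on Percoll, selected positively on magnetic beads and sorted on a fluorescent signal. One library came from JMJD1CWT mice (WT) and 1 from JMJD1CTregcKO mice (cKO), in which Jmjd1c, a gene of the JmjC histone demethylase family, was targeted in Tregs. The Cre driver, the removed exons, the tumour model and how many animals of which sex were used are not stated in the labels used here.

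CD8 T cells recognise peptides on class I MHC molecules and kill their targets with perforin and granzymes. In tumours they range from memory-like cells that keep Tcf7 and Il7r, through Gzmk-expressing effector cells, to cells under chronic stimulation that carry several inhibitory receptors such as PD-1 (Pdcd1), LAG-3 and TIM-3 (Havcr2). A Treg sort aims to leave them out, since Tregs carry CD4, and the CD8 cells found in it share droplet fluid, and sometimes a droplet, with Tregs.

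CD8 barcodes were 187 of 3842 kept barcodes in WT (4.87%, 95% interval 4.21 to 5.60) and 393 of 4026 in cKO (9.76%, 8.86 to 10.7). The selection and the sort can set this share. With 1 library per group there is no test and no replicate check. Intervals are exact at 95% (Poisson for a level, binomial for a share or a ratio) and cover counting error only, since cells of 1 library are not replicates. The median CD8 barcode held 19186 UMIs in WT and 10629 in cKO, against 8333 and 6128 in T cells without a Cd8 UMI. At the threshold, 30 WT and 13 cKO barcodes had exactly 3 Cd8 UMIs, and 83.3% and 46.2% of them held a Cd4 UMI. Of the 97 and 61 otherwise similar barcodes with 2 Cd8 UMIs, 90.7% and 75.4% held one. The libraries shared 2 barcode sequences, and neither was a CD8 barcode. Jmjd1c, read at its 3' end and so no check of a deletion elsewhere in the gene, stood at 59.2 CPM (UMIs per 1000000 UMIs) in WT and 58.7 in cKO CD8 barcodes, and at 90.5 and 75.8 in T cells without Cd8. Xist, made from the inactive X chromosome of females, was found in 95.6% of WT CD8 barcodes and in 0 of 343 of cKO (exact upper bound 1.07%), so that sex, library and genotype cannot be told apart in any comparison below.

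Most WT CD8 barcodes also carried Treg transcripts. A UMI of Cd4 or of Foxp3, the Treg transcription factor, was present in 121 of 187 WT barcodes and in 100 of 393 in cKO. The 66 WT and 293 cKO barcodes with neither are called Cd4/Foxp3-free here, and were 35.3% and 74.6% of the CD8 barcodes. Deeper barcodes show more UMIs of any gene, so cells were also thinned at random to 5700 UMIs each, which left out 6 WT and 50 cKO barcodes that were shallower. After thinning, Cd4 was found in 33.1% of WT and 11.7% of cKO CD8 barcodes (62.6% and 20.4% before). The same share was 62.3% and 60.3% in T cells without Cd8, and 0% and 1.21% in myeloid cells.

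The Treg load was also counted per cell over 7 Treg genes (Cd4, Foxp3, Ccr8, Il1rl1, Gpr83, Izumo1r and Ikzf4). CD8 barcodes of WT held 94.02% (88.95 to 99.3) of the UMIs per cell found in T cells without Cd8, and those of cKO held 42.8% (40.3 to 45.4). CD8 barcodes were the deeper ones, and per UMI in place of per cell the values were 48.8% and 26.8%. Myeloid cells of the same libraries held 3.53% (1.61 to 6.70) and 1.86% (1.19 to 2.77) per cell. In barcodes with a Cd4 or Foxp3 UMI it reached 131% and 129%, and their median depth was 21115 and 14583 UMIs. In Cd4/Foxp3-free barcodes, which are chosen to lack 2 of the 7 genes, it was 25.5% (21.3 to 30.3) and 13.2% (11.6 to 14.9), at a median depth of 14294 and 9226 UMIs. Where this RNA came from was not tested.

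**Figure D1:**
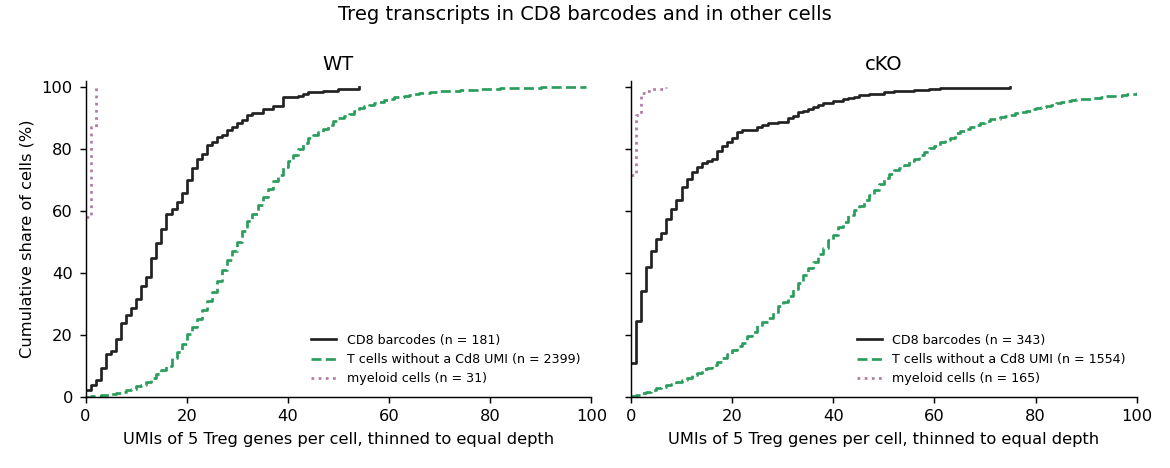
Cumulative share of cells (y axis, %) by thinned UMIs of 5 abundant Treg genes (Ikzf2, Tnfrsf4, Ctla4, Izumo1r and Ikzf4; x axis) in WT (left) and cKO (right), for CD8 barcodes, T cells without a Cd8 UMI and myeloid cells. The median CD8 barcode had 15 such UMIs in WT and 5 in cKO, between the myeloid median of 0 and the T cell medians of 30 and 39.

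Barcodes with the highest Treg load had the fewest Cd8 UMIs. A set of 5 Treg genes outside the choice of Cd4/Foxp3-free barcodes (Ikzf2, Tnfrsf4, Ctla4, Izumo1r and Ikzf4) was summed per thinned barcode. In WT, 17 of 181 barcodes had 0 to 3 of these UMIs and 83 had 16 or more, against 144 and 82 of 343 in cKO. Barcodes with 16 or more held a mean of 3.86 (WT) and 4.73 (cKO) Cd8 UMIs, and those with 0 to 3 held 6.82 and 9.99, with 9.19 and 5.91 (WT) and 9.32 and 8.83 (cKO) in the classes between, at 4 to 7 and 8 to 15. Activated CD8 cells can make Ctla4, Tnfrsf4 and Ikzf2 themselves, so this sum is a description of the barcode and not a purity.

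The Cd4/Foxp3-free barcodes matched the CD8 label by genes outside the rule. Against T cells without Cd8 of the same library, 31 of 2401 genes were at least 2-fold higher in both libraries (1.29%) and 71 at least 2-fold lower in both (2.96%). Within WT alone 5.33% of genes were 2-fold apart (1.75% higher, 3.58% lower), and within cKO 8.7% (2.12% higher, 6.58% lower). These shares describe cells chosen by Cd8, Cd4 and Foxp3 and carry no test. Of 8 measured genes of granzymes and killing, 5 were among the higher genes, as were 4 of 5 killer lectin receptors, while the fifth, Klrg1, was lower in both (-2.93 and -2.26), and 5 of 7 genes of a wider Treg list were among the lower ones. Klrd1 (CD94, partner of the NKG2 receptors) stood at 447 CPM in WT Cd4/Foxp3-free barcodes and 521 in cKO, against 15.9 and 36.6 CPM in T cells without Cd8. Nkg7, a protein of cytotoxic granules, stood at 1996 and 2373 against 574 and 580, and Prf1 (perforin) at 205 and 137 against 31.1 and 11.8. Klrk1 (NKG2D), at 262 and 290 CPM, and Bcl2, a survival factor, at 193 and 72.7, were also higher than in the T cells, where they lay between 9.64 and 20.2. Tnfrsf4 (OX40) and Il2ra (CD25), both abundant in Tregs, were lower in both libraries, with log2 ratios of -1.60 and -3.19 for Tnfrsf4 and -1.73 and -2.73 for Il2ra.

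Markers of other cell types were low but not absent. The NK list had 9 genes, of which Ncr1 and Klrb1c were limited by the rule. Gzma, counted with the granzymes below, was left out of the sum. It was found in 9.94% of WT and 24.8% of cKO barcodes after thinning. Of the 8 genes kept, Ncr1, Klra8, Klra4 and Klra9 were at 0 in both libraries, and the 8 summed to 160.5 CPM in WT and 79.8 in cKO. Tyrobp gave 76.2 and 38.2 CPM of this, Fcer1g 74.8 and 18.3, and Eomes, which CD8 memory cells also make, 7.77 and 22.7. Macrophage genes, limited by the rule, summed to 22.8 and 54.7 CPM. B cell genes summed to 62.2 and 42.2 CPM, with Ms4a1 at 0. Neutrophil genes were all at 0 in WT and summed to 41.6 CPM in cKO, where S100a8 was found in 1 thinned barcode (0.292%). Before thinning, 1 cKO barcode held all 66 S100a8 UMIs and 1 held 129 of the 131 S100a9 UMIs. Csf3r and Retnlg were each found in 1 cKO barcode, so the sum does not describe the library. Stromal genes stayed under 1 CPM (0.728 and 0.603). Among γδ T cell genes, Tcrg-C2, a γ chain constant region, was found in 21.5% of WT (15.8 to 28.3) and 6.71% of cKO CD8 barcodes (4.30 to 9.89), and in 0.292% and 0.193% of T cells without Cd8. Trdc, the δ chain constant region that γδ T cells need, was at 0 in WT and found in 4 of 343 cKO barcodes, and Sox13 was at 0 in both. The 7 dendritic cell genes other than Ccr7 summed to 182 CPM in WT and 27.3 in cKO, and return below.

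Gzmk encodes granzyme K, a granzyme of early effector and memory-like CD8 cells (chromosome 13, 113171608 to 113225908, minus strand, mm10). Its level was 33.8 CPM (28.4 to 39.9) over the WT CD8 barcodes and 189.6 CPM (177.6 to 202.0) over those of cKO. In T cells without Cd8 it was 3.23 and 3.41 CPM, and in myeloid cells 0 in both libraries. After thinning, 22 of 181 WT barcodes (12.2%, 7.78 to 17.8) and 168 of 343 cKO barcodes (49.0%, 43.6 to 54.4) held a Gzmk UMI, and 27.8% and 62.6% did before. The 2 intervals do not overlap. T cells without Cd8 gave 0.709% and 0.965%.

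Gzmk values differed with the Treg load in both libraries. The level over Cd4/Foxp3-free barcodes was 53.9 CPM (40.8 to 69.9) for WT against 221 (205.5 to 237.6) for cKO, with Gzmk in 24.2% (14.2 to 36.7) and 52.5% (46.0 to 58.9) of them after thinning. By Treg UMIs, Gzmk was found in 35.3% of the 17 WT barcodes with 0 to 3, in 11.5% and 12.7% of the next classes and in 7.23% of those with 16 or more. The same classes gave 56.9%, 45.3%, 46.9% and 39.0% in cKO. In each class the cKO share was the higher one, but with 0 to 3 Treg UMIs the intervals overlapped, 14.2 to 61.7 in WT and 48.4 to 65.2 in cKO. With 16 or more they were 2.70 to 15.1 and 28.4 to 50.4. Within each library the intervals of the lowest and the highest class therefore overlapped.

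**Figure D2:**
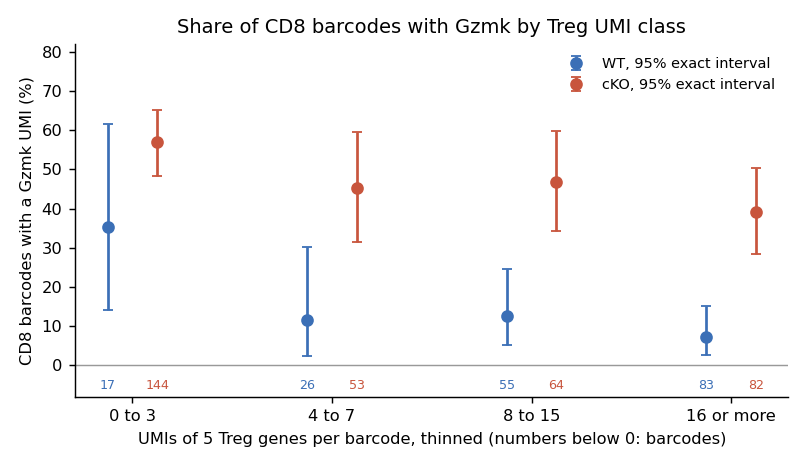
Share of CD8 barcodes with a Gzmk UMI (y axis, %, points, with 95% exact binomial intervals as bars) by class of thinned Treg UMIs (x axis) in WT and cKO; the small numbers give the barcodes per class. The cKO points lie between 39.0% and 56.9% and the WT points between 7.23% and 35.3%, and the WT class with the fewest Treg UMIs holds 17 barcodes.

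The other 3 states were counted in the thinned barcodes. A UMI of Gzmc or Gzmf, granzymes of strongly activated killer cells, was found in 10.5% of WT (6.44 to 15.9) and 12.5% of cKO CD8 barcodes (9.22 to 16.5), against 2.001% and 6.82% of T cells without Cd8. At least 5 UMIs of 40 cell cycle genes, a range of a sum and not a cell type, were found in 47.0% (39.5 to 54.5) and 48.4% (43.0 to 53.8), against 36.0% and 31.3% of the T cells. At least 2 of the inhibitory receptors Pdcd1, Havcr2 and Lag3 were found in 45.9% (38.4 to 53.4) and 46.1% (40.7 to 51.5), against 43.7% and 34.7%. For each of these 3 states the intervals of WT and cKO overlapped. The inhibitory receptor share moved with the setting. Without thinning it was 74.9% in WT and 60.3% in cKO, at unequal median depths of 19186 and 10629 UMIs. With under 4 thinned Treg UMIs it was 17.6% of 17 WT barcodes and 36.1% of 144 cKO ones. The order of the libraries thus turned, but between unequal depths and a class with few WT barcodes. In the Cd4/Foxp3-free barcodes the cell cycle share was 35.5% (23.7 to 48.7) in WT and 48.0% (41.5 to 54.4) in cKO, while the inhibitory receptor share was 48.4% and 47.1%.

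Genes of naive and memory T cells differed between the libraries in both directions. Tcf7, the transcription factor of stem-like CD8 cells, was found in 4.97% (2.30 to 9.23) of WT and 14.6% (11.0 to 18.8) of cKO barcodes against 1.67% and 4.63% of the T cells and 0% of myeloid cells. The survival cytokine receptor Il7r went the other way, in 50.3% of WT (42.8 to 57.8) and 34.1% of cKO barcodes (29.1 to 39.4), against 63.2% and 42.7% of the T cells and 22.6% and 20.6% of myeloid cells. The lymph node homing receptor Ccr7 was found in 37.6% (30.5 to 45.1) and 25.7% (21.1 to 30.6), against 29.4% and 26.4% of the T cells and 6.45% and 1.21% of myeloid cells.

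**Figure D3:**
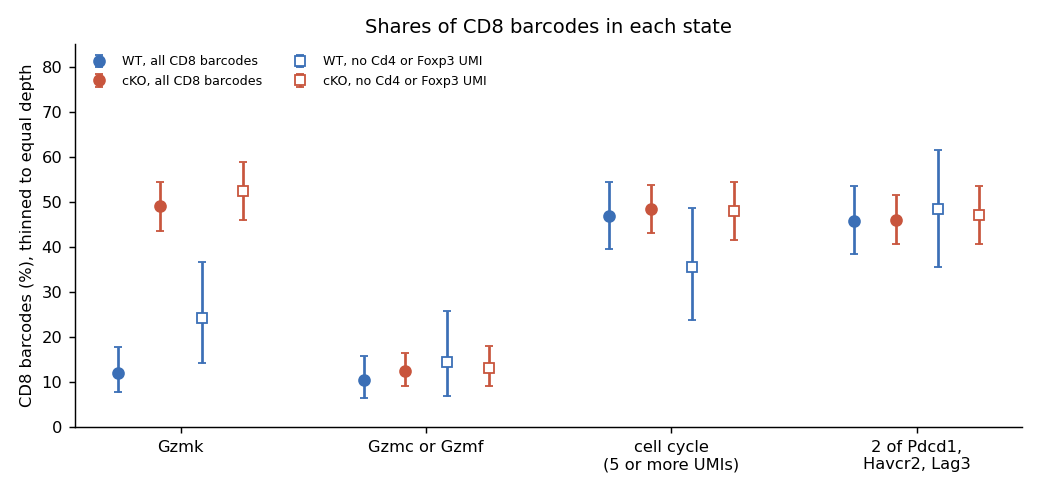
Share of thinned CD8 barcodes (y axis, %) in each of 4 states (x axis) for WT and cKO, in all CD8 barcodes (filled circles) and in Cd4/Foxp3-free ones (open squares), with 95% exact binomial intervals as bars. Gzmk is the state where the libraries lie apart, at 12.2% and 49.0% in all barcodes and at 24.2% and 52.5% in Cd4/Foxp3-free ones.

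The states overlapped. Among the barcodes with Gzmk, 3 of 22 in WT and 18 of 168 in cKO also had Gzmc or Gzmf, and 7 and 80 were in the cell cycle range. Barcodes with Gzmc or Gzmf held 2 inhibitory receptors in 14 of 19 WT and 24 of 43 cKO cases, against 42.6% and 44.7% of the other barcodes, and their median depth before thinning was greater (22119 and 17610 UMIs against 19253.5 and 11062.5). None of Gzmk, Gzmc, Gzmf or the cell cycle range applied to 39.8% of WT and 23.3% of cKO barcodes. The Gzmc and Gzmf levels rested on few barcodes. The 19 WT barcodes with most of these UMIs held 99.3% of them and the 40 such cKO barcodes 97.2%, and 1 barcode alone held 44.3% and 39.4%. Gzmk was more evenly spread, with 68.3% and 44.5% of its UMIs in as many barcodes.

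Of 2586 genes whose mean level reached 50 CPM, 62 differed by 2-fold or more between cKO and WT CD8 barcodes (2.4%), 21 higher in cKO (0.812%) and 41 lower (1.59%). The median log2 ratio over all these genes was 0.01. Log2 ratios are of CPM plus 5, which understates the difference of low genes. In Cd4/Foxp3-free barcodes 15 of the 21 and 32 of the 41 were also 2-fold apart in the same direction, where 3.05% of genes were 2-fold apart (1.08% higher, 1.97% lower). Of the 21 and 41, 11 and 14 were also 2-fold apart in the same direction in T cells without Cd8, where 2.78% of the 2586 genes were 2-fold apart (1.51% higher, 1.28% lower).

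Among granzymes and their partner molecules, of 12 measured genes 2 were at least 2-fold higher in cKO and 1 lower, with a median log2 ratio of 0.50, and of 0.73 in Cd4/Foxp3-free barcodes. Besides Gzmk (log2 ratio 2.33, interval 2.23 to 2.76, and 1.94 in Cd4/Foxp3-free barcodes), Gzmb, the main apoptosis-inducing granzyme, stood at 1051 CPM in WT and 3206 in cKO (1.60, and 1.36 in Cd4/Foxp3-free barcodes). Gzmb was not particular to CD8 barcodes, since T cells without Cd8 went from 504 to 3984 CPM (2.97). Gzma stood at 181 and 353 CPM (0.95, 0.84 to 1.09), and 1 WT barcode held 42.7% of its WT UMIs. Without the barcode with the most Gzma UMIs in each library, the levels were 104 and 326 CPM (1.60), past 2-fold. Prf1 had 126 and 122 CPM (-0.04) and Fasl, the death ligand, 43.7 and 81.6 (0.83). Gzmf was the lower gene, at 300 CPM in WT and 85.6 in cKO (-1.75, -1.97 to -1.65), and at 137 and 58.7 CPM without the 1 barcode of each library with the most Gzmf UMIs. After thinning it was found in like shares of barcodes, 4.97% in WT and 4.66% in cKO. Gzmc stood at 139 and 107 CPM in all barcodes and at 86.1 and 147 in Cd4/Foxp3-free ones, so its direction turned, and 1 WT barcode held 71.8% of its WT UMIs.

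Chemokines and cytokines followed with 1 gene of 4 measured higher and 1 lower. Ccl5 (RANTES, which attracts T cells; chromosome 11, 83525778 to 83530518, minus strand) had a level of 1376 CPM (1340 to 1412) for WT against 5120 (5058 to 5184) for cKO, a log2 ratio of 1.89, and at 1905 and 5645 in Cd4/Foxp3-free barcodes (1.56). Its log2 ratio in T cells without Cd8 was 0.53. Xcl1, which attracts cross-presenting dendritic cells, was the lower gene, with 308 CPM in WT and 141 in cKO (-1.10), and 397 and 78.4 in Cd4/Foxp3-free barcodes (-2.27). It was also lower in T cells without Cd8 (-1.54), and among barcodes with under 4 thinned Treg UMIs the sign turned (0.40). Ccl4 had 94.2 and 186 CPM (0.95), and 83.6 and 118 without the barcode with the most Ccl4 UMIs in each library, with thinned shares of 18.2% and 19.0%. Ifng, the interferon of effector T cells, had 63.6 and 109 CPM (0.73, and 0.30 in Cd4/Foxp3-free barcodes).

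The remaining genes among the 12 highest fell into receptors, signalling and heat shock. Ly6c2, a surface marker of memory and effector CD8 cells, stood at 223 CPM in WT and 830 in cKO (1.87), and Klrc1 (NKG2A, an inhibitory lectin receptor) at 145 and 389 (1.39). Il12rb2, a chain of the interleukin 12 receptor, stood at 29.9 and 100.3 (1.59), and Socs3, an inhibitor of cytokine signalling, at 37.6 and 110 (1.43, but 0.83 and under 2-fold in Cd4/Foxp3-free barcodes). The phosphatase Dusp2 had a log2 ratio of 1.39, the chromatin organiser Satb1 1.39 and Gramd3 1.58. In T cells without Cd8, Ly6c2 (2.46), Il12rb2 (1.04), Socs3 (1.85), Satb1 (1.34) and Gramd3 (1.35) were at least 2-fold higher in cKO too, while Klrc1 (0.92) and Dusp2 (0.41) were not. The chaperones Hspa1a and Hspa1b were each at 1.24, with 98.8% and 96.6% of their WT UMIs in 19 barcodes. They were also at least 2-fold higher in T cells without Cd8 (1.24 and 1.04) and in myeloid cells (1.64 and 2.07).

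**Figure D4:**
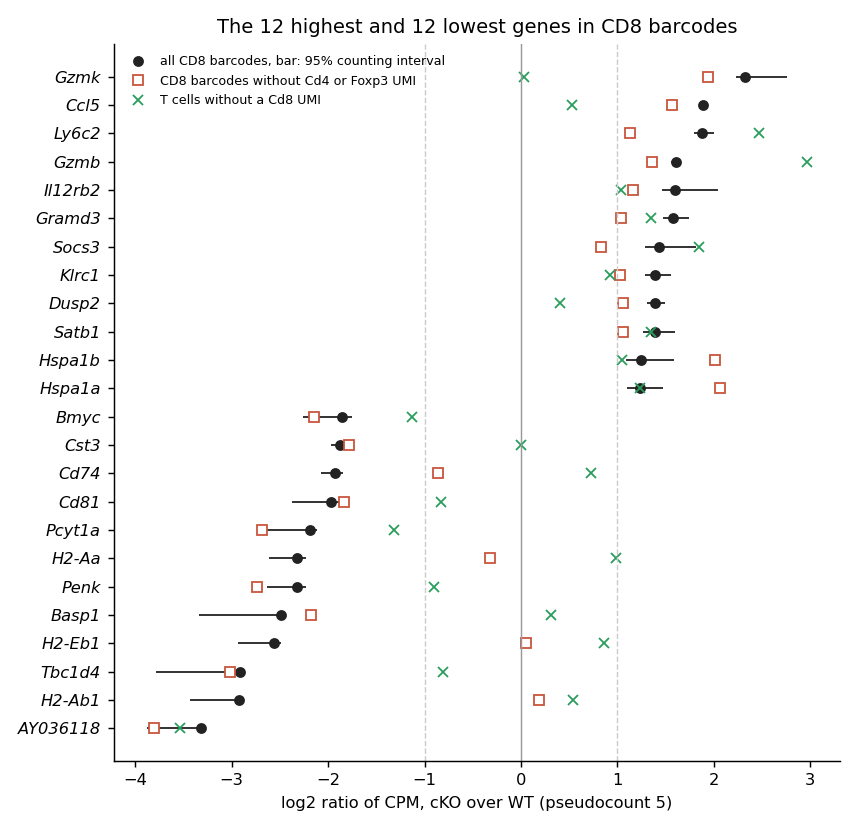
Log2 ratio of CPM, cKO over WT (x axis), for the 12 highest and 12 lowest genes in CD8 barcodes (y axis): all CD8 barcodes (filled circles, bars are 95% counting intervals of the ratio without the added 5 CPM), Cd4/Foxp3-free ones (open squares) and T cells without Cd8 (crosses). Gzmk lies at 2.33 against 0.03 in the T cells, and the MHC class II genes H2-Ab1 and H2-Eb1 move from -2.92 and -2.56 to 0.19 and 0.06 in Cd4/Foxp3-free barcodes.

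Inhibitory receptors and exhaustion factors gave 0 of 9 measured genes at 2-fold, with a median log2 ratio of -0.12. Over all 2586 genes the share at 2-fold was 2.4%, so a list of this size would seldom hold one. In Cd4/Foxp3-free barcodes 1 of the 9 was at least 2-fold lower (median -0.02), where 3.05% of all genes were 2-fold apart. Pdcd1 stood at 477 CPM in WT and 481 in cKO (0.01, -0.07 to 0.10), while in T cells without Cd8 it went from 456 to 185 (-1.28). Lag3 stood at 144 and 244 CPM (0.74), and at 209 and 235 in Cd4/Foxp3-free barcodes (0.16), and Havcr2, below the level filter, at 44.7 and 42.2. Rgs16, a regulator of G protein signalling, was higher in cKO (339 and 617 CPM, 0.86), against -0.79 in the T cells. The activation-induced receptor Nr4a2 was lower (205 and 114 CPM, -0.82). Tox, a factor of chronically stimulated CD8 cells, was found in 27.1% of thinned WT barcodes (20.7 to 34.2) and 11.4% of cKO ones (8.21 to 15.2). Tox was also found in 41.2% and 17.6% of T cells without Cd8, so that the difference appeared in both populations.

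Stem and memory genes had 1 gene of 9 measured at least 2-fold higher and 1 lower, Ly6c2 and Xcl1. In Cd4/Foxp3-free barcodes 3 of the 9 were at least 2-fold higher and 2 lower. Over all CD8 barcodes Cd27, a costimulatory receptor of memory cells, stood at 120 and 231 CPM (0.92). Klf2, which keeps T cells in circulation, was at 66.8 and 131 CPM (0.92). Bcl2 (109 and 64.5 CPM, -0.72) and Il7r (181 and 120 CPM, -0.58) were lower. Of 7 genes of residency and adhesion 2 were at least 2-fold lower and 0 higher. Those were Itga4, an integrin chain for entry into tissue (195 and 63.9 CPM, -1.54), and the signalling regulator Rgs2 (516 and 143 CPM, -1.82). Both were lower in T cells without Cd8 as well (-2.31 and -1.77). Cxcr6, a receptor of tumour-resident CD8 cells, stood at 354 and 533 CPM (0.58).

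Among the killer lectin receptors 1 of 5 measured genes was 2-fold apart, Klrc1, and 2 of the 5 were at least 2-fold higher in Cd4/Foxp3-free barcodes. Klre1 was lower in cKO (-0.29), found in 38.1% of WT (31.0 to 45.6) and 24.8% of cKO barcodes (20.3 to 29.7) after thinning. Klrg1 had a log2 ratio of 0.41. Klrd1 (250 and 423 CPM, 0.75) and the activating receptor Klrk1 (128 and 238 CPM, 0.87) were higher in cKO over all CD8 barcodes, and the ratios were 0.22 and 0.14 in Cd4/Foxp3-free ones. Cd8a and Cd8b1 went the same way, at 422 and 696 and at 380 and 713 CPM in all barcodes and at 722 and 829 and at 638 and 827 in Cd4/Foxp3-free ones. Both genes were used to choose the barcodes, so these levels are not a separate result. A cut at 3 raw UMIs asks for a higher CPM in shallower barcodes, and the cKO barcodes were the shallower ones. The cell cycle lists had 0 of 11 (S phase) and 0 of 8 (G2 and M phase) genes at 2-fold, with median log2 ratios of -0.12 and -0.15 that became 0.22 and 0.36 in Cd4/Foxp3-free barcodes. In the latter, 1 S phase gene was at least 2-fold higher. Interferon response genes had 0 of 10 at 2-fold and a median of 0.20, and -0.15 in Cd4/Foxp3-free barcodes.

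Antigen presentation genes made up 4 of the 12 lowest. H2-Ab1, H2-Eb1 and H2-Aa, the chains of MHC class II, and Cd74, their invariant chain, are made by dendritic cells, B cells and macrophages and hardly by mouse T cells. H2-Ab1 stood at 225 CPM in WT and 25.3 in cKO (-2.92), H2-Eb1 at 257 and 39.4 (-2.56), H2-Aa at 287 and 53.7 (-2.32) and Cd74 at 666 and 171 (-1.93). In Cd4/Foxp3-free barcodes H2-Ab1 had 22.7 and 26.5 CPM (0.19, -0.44 to 0.94), H2-Eb1 0.06 (-0.41 to 0.56), H2-Aa -0.32 (-0.70 to 0.02) and Cd74 -0.86. Of the 166 class II UMIs in WT Cd4/Foxp3-free barcodes, 3 barcodes held 75.3%. These UMIs sat in few barcodes. In WT, 19 of 187 CD8 barcodes had 10 or more UMIs of the 3 class II chains and held 94.6% of all 3169, and in cKO 4 of 393 held 68.4% of 589.

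Transcripts of mature dendritic cells were found in part of the same barcodes. Fscn1, an actin bundling protein, and Ccl22, a chemokine that attracts Tregs, are markers of these cells, and 2 or more of their UMIs were found in 12 WT (6.42%) and 2 cKO (0.509%) CD8 barcodes. The share was 1.30% and 0.770% of T cells without Cd8. Those 12 WT barcodes held 64.2% of the class II UMIs. Without these 12 and 2 barcodes the log2 ratio of Tbc1d4, which governs glucose uptake, went from -2.91 to -0.27, that of Basp1, a membrane protein, from -2.49 to -0.72, and that of Cst3 (cystatin C) from -1.88 to -0.93. H2-Ab1 remained at -2.06 and H2-Eb1 at -1.78, and 22 genes were then 2-fold higher and 37 lower. The number of genes measured without these barcodes is not given here, so the 2 counts are not shares. The part of dendritic cells captured with CD8 cells in these ratios was not tested further.

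Of the other low genes, Penk (277 and 51.5 CPM, -2.32), which encodes proenkephalin, and the tetraspanin Cd81 (153 and 35.2 CPM, -1.98) are both abundant in the T cells without Cd8, where Penk had 519 and 274 CPM and Cd81 276 and 153. In Cd4/Foxp3-free barcodes they remained lower in cKO (-2.73 and -1.83), while among barcodes with under 4 thinned Treg UMIs, 17 of them in WT, their signs turned, to 0.96 and 0.30. AY036118 (-3.32), Pcyt1a (-2.19), an enzyme of phospholipid synthesis, and Bmyc (-1.85), a relative of Myc, were at least 2-fold lower in T cells without Cd8 as well (-3.54, -1.32 and -1.13). For AY036118 the ratio in myeloid cells was -3.84, so this gene differed across the libraries in each of these cell types.

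Barcodes with and without Gzmk were compared within each library. Genes were ranked in cKO (168 with, 175 without) and then read in WT (22 with, 159 without), which the ranking did not use. Of 2514 genes 10 were at least 2-fold apart in cKO (0.398%), and 39 of 2589 in WT (1.51%, with 0.811% higher and 0.695% lower), where the smaller set has wider error. In cKO 0.199% were higher and 0.199% lower. Of the interferon response list 10 of 10 measured genes had a positive log2 ratio in cKO, 2 of them at 2-fold, with a median of 0.45, and 11 of 12 in WT, 4 at 2-fold, with a median of 0.74. The median over all genes was -0.01 in both. Ifit3, an antiviral protein, stood at 25.5 CPM without and 105 with Gzmk in cKO (1.85) and at 44.7 and 237 in WT (2.28), and Ifit1 had log2 ratios of 1.66 and 1.43. Cxcl10, an interferon-induced chemokine, had 1.83 and 0.92, Ifi206 1.29 and 1.16, and Irf7, a regulator of interferon genes, 0.85 and 0.94. Gzma stood at 179 and 443 CPM in cKO (1.29) and at 141 and 518 in WT (1.84), and Ccl5 had 0.94 and 0.93. Of the 10 highest genes 9 had the same sign in WT, and Gzmc did not (0.88 and -1.33). Among the 10 lowest, Cd74, Cst3, Nfkbiz and Ifitm1 did not either, as given below. The share of all genes with the same sign in both libraries is not given here, so 9 of 10 is a count only. Each Gzmc sign rested on 1 barcode, and without it the ratios were -1.03 and 0.52.

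Ccl4 and Xcl1, chemokines of freshly stimulated CD8 cells, were lowest with Gzmk. Ccl4 stood at 307 CPM without and 43.2 with Gzmk in cKO (-2.70) and at 92.7 and 36.0 in WT (-1.25), and 1 cKO barcode held 36.7% of its cKO UMIs. Xcl1 stood at 236 and 39.5 in cKO (-2.44) and at 335 and 94.6 in WT (-1.77). Il1r2, a decoy receptor made by tumour Tregs, was lower too (-1.40 and -1.35), and the transcription factor Zeb2 less so (-1.05 and -0.58). Cd74, Cst3, Nfkbiz and Ifitm1 were lower in cKO but had log2 ratios of 0.09, 0.50, 0.08 and 0.95 in WT. Without the barcode with the most UMIs of the gene, Cst3 turned to 0.23 in cKO and Ifitm1 to -0.66 in WT. Pdcd1 (0.32 and -0.21) and Lag3 (-0.45 and 0.37) had opposite signs in the libraries. Tnfrsf4, abundant in Tregs, was lower with Gzmk in both (-0.70 and -0.39), and the part of Treg RNA in these ratios was not tested. In the Cd4/Foxp3-free cKO barcodes Ifit3 had 1.45, Gzma 1.75, Ccl4 -2.58 and Xcl1 -1.57.

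**Figure D5:**
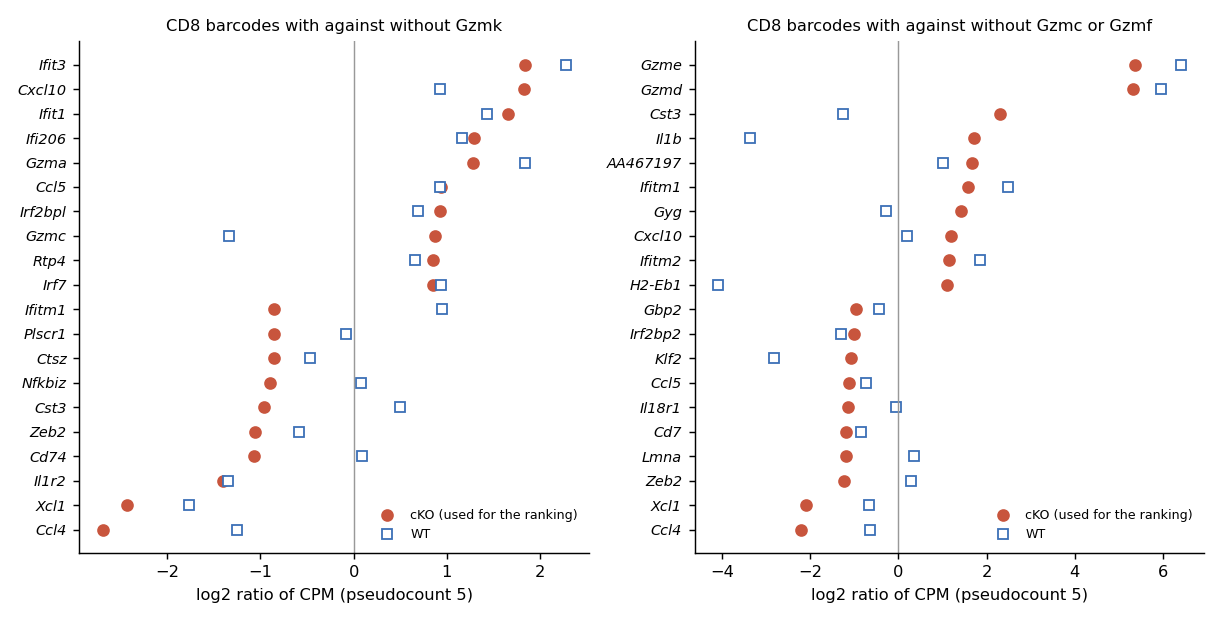
Log2 ratio of CPM (x axis) between CD8 barcodes with and without Gzmk (left) and with and without Gzmc or Gzmf (right) for the 10 highest and 10 lowest genes in cKO (y axis), in cKO (filled circles, used for the ranking) and in WT (open squares). Gzmd and Gzme lie above 5 in both libraries on the right, where 1 WT barcode held 97.8% and 87.9% of their WT UMIs, and Ccl4 and Xcl1 are the 2 lowest cKO genes in both panels.

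Some barcodes with Gzmc or Gzmf carried the neighbouring granzymes of the same gene cluster. Gzme was found in 7 of the 43 such barcodes in cKO and in 5 of 19 in WT, and Gzmd in 7 and 1. Gzme stood at 0.252 CPM without and 210 with them in cKO (5.36) and at 1.94 and 587 in WT (6.41), and Gzmd had log2 ratios of 5.33 and 5.95. Without the barcode with the most UMIs of the gene in each library, Gzme had 4.21 and 3.32 and Gzmd 4.70 and -0.29. These granzymes are similar in sequence, and reads that could be placed on more than 1 of them make their separate levels uncertain. Of 2470 genes 23 were at least 2-fold apart in cKO (0.931%, with 0.567% higher and 0.364% lower), and 47 of 2513 in WT (1.87%, with 0.597% higher and 1.27% lower). Gzmb, at 2771 and 5718 CPM in cKO (1.04) and 855 and 2518 in WT (1.55), and Prf1 (1.08 and 1.67) were higher with them. So were the membrane proteins Ifitm1 (1.58 and 2.49) and Ifitm2 (1.16 and 1.86) and the gene AA467197 (1.66 and 1.01). Ccl5 (-1.11 and -0.73), Klf2 (-1.07 and -2.82), Ccl4 (-2.20 and -0.65), Xcl1 (-2.10 and -0.65) and Cd7 (-1.18 and -0.85) were lower in both libraries. Ccr7 was lower as well, at 307 and 162 CPM in cKO and 537 and 85.05 in WT. Cst3 (2.30 and -1.24) and H2-Eb1 (1.11 and -4.09) had opposite signs, and without the cKO barcode with the most UMIs of the gene their cKO ratios were -0.04 and -0.92. Il1b (1.72) and Cxcl10 (1.20) were higher in cKO, but without 1 barcode each their ratios were -1.04 and -0.45, and Il1b was at 0 UMIs in the 19 WT barcodes with Gzmc or Gzmf.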

How the data were processed

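Raw UMI counts for each gene and barcode were deposited for 1 WT and 1 cKO library. The authors made them with Cell Ranger 5.0.1 (per the file headers) on mm10 (per the submitters' processing notes). What is not given in the sources used here is the annotation release, whether intron reads counted, and any filter or removal of doublets. The members and gene lists were chosen with earlier results of these data known. No doublet caller was run; Cd4/Foxp3-free barcodes, and barcodes without the highest 5% of UMI totals, were analysed as alternatives. Library totals were 49063944 (WT) and 37666195 (cKO) UMIs over 3905 and 4105 barcodes, and CD8 barcodes summed to 4118350 and 4974928.

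T cells without Cd8 had 0 Cd8 UMIs and otherwise the same rule (3007 and 2729 barcodes). Myeloid cells had at least 10 UMIs of Lyz2, C1qa and C1qb and none of Cd3 or Cd8 (33 and 186). UMIs were summed per class and library and given as CPM. Log2 ratios used a pseudocount of 5 CPM, and a gene was called at 2-fold. With 1 library per group, a p-value was not computed. Thinning was without replacement to the 10th percentile of UMI totals. Genes named are the 12 highest and 12 lowest log2 ratios at a mean of at least 50 CPM, the 10 highest and 10 lowest in each split in cKO, and members of 21 gene lists; receptor segments, mitochondrial genes, unnamed models, Xist and Y-linked genes were not ranked. Gene coordinates are from GENCODE M21 on mm10, which matched 32158 of 32285 identifiers. A share of barcodes over a set of memory genes is not reported here. The sums and intervals were tested on simulated Poisson counts, which do not hold the concentration of UMIs in few barcodes found here. Python 3.11.15, numpy 2.4.6, scipy 1.17.1, pandas 2.3.3 and matplotlib 3.10.9 were used. Alternatives covered the rule's Cd8 minimum, the gene minimum, thinning, pseudocount, level filter, centring, cell weighting, cycling cells, a subtraction of Treg RNA and, chosen after seeing the data, barcodes with under 4 Treg UMIs, those without 2 Fscn1 or Ccl22 UMIs, and the barcode with the most UMIs of each gene left out.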

Additional observations from a re-analysis of the deposited data

Results flagged for a closer look

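Each of the 6 genes below was at least 2-fold lower in cKO CD8 barcodes but higher in cKO T cells without Cd8. Each of these differences exceeded its counting interval, but that interval takes UMIs as independent. In WT, 19 CD8 barcodes held between 79.7% (Cd74) and 100% (Gzmf) of the UMIs of each gene, which the intervals do not cover. Genes under 2-fold in CD8 barcodes, such as Rgs16, are not listed here. The difference between the 2 cell types was not tested. The log2 ratio in CD8 barcodes was -2.92 for H2-Ab1, against 0.54 in T cells without Cd8. It was -2.56 against 0.86 for H2-Eb1, -2.32 against 0.99 for H2-Aa and -1.93 against 0.73 for Cd74, the other genes of MHC class II. For Basp1 it was -2.49 against 0.31, and for the granzyme gene Gzmf -1.75 against 0.15. For Gzmf, 1 WT barcode held 54.5% of the WT UMIs in CD8 barcodes. Basp1 fell under 2-fold without the barcodes that held 2 or more Fscn1 or Ccl22 UMIs, as given above. In Cd4/Foxp3-free CD8 barcodes H2-Ab1 (0.19) and H2-Eb1 (0.06) had the same sign as in the T cells, while H2-Aa (-0.32), Cd74 (-0.86), Basp1 (-2.17) and Gzmf (-2.66) did not. The intervals of H2-Ab1 (-0.44 to 0.94), H2-Eb1 (-0.41 to 0.56) and H2-Aa (-0.70 to 0.02) held both signs, so these signs are uncertain.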

How the results depend on the processing

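No paired analysis was possible because each group has 1 library. Of 115 single genes under 12 alternatives, 5 values at 2-fold or more turned sign, 854 stayed within their counting interval and 521 moved beyond it. Of values under 2-fold, 93 turned sign. Of the 24 ranked genes, 17 to 24 remained at 2-fold in the same direction. The cause was not tested. Without Cd4 or Foxp3 barcodes, H2-Ab1 turned sign to a log2 ratio of 0.19 (interval -0.44 to 0.94) and H2-Eb1 to 0.056 (-0.41 to 0.56). Both intervals hold both signs. In the same setting, the share of CD8 barcodes was 1.72% in WT and 7.28% in cKO, the Gzmk share 24.2% (WT) and the cell cycle share 35.5% (WT). With under 4 Treg UMIs only, Penk (0.96), Cd81 (0.30) and Xcl1 (0.40) reversed, 69 genes were higher and 116 lower, and the shares in WT and cKO were 35.3% and 56.9% for Gzmk and 17.6% and 36.1% for the inhibitory receptors, and 17.6% in WT for Gzmc or Gzmf. With at least 2 Cd8 UMIs the CD8 share was 7.39% and 11.3%, with at least 5 it was 3.67% in WT, and of T cells it was 10.8% in cKO. Genes at 2-fold numbered 34 higher and 95 lower at a mean of 20 CPM, 64 and 208 with no filter, and 44 higher after the subtraction of Treg RNA. All gene counts in this section are given without the number of genes measured, which changes with the level filter. They are not shares and are not to be set beside the 62 of 2586 genes above. The Treg load per cell (WT and cKO) was 48.8% and 26.8% per UMI in place of per cell, 85.1% and 39.9% from Foxp3, 86.5% and 28.8% from Cd4, 113% and 51.9% from the wider list, 76.3% and 37.6% with at least 5 Cd8 UMIs, and 87.6% and 39.5% without the highest 5% of UMI totals. Without thinning, Gzmk was found in 27.8% and 62.6%, Gzmc or Gzmf in 16.6% and 17.05% and the inhibitory receptors in 74.9% and 60.3%. At the 25th percentile the values were 21.4% in WT for Gzmk, 16.7% in cKO for Gzmc or Gzmf, and 54.3% and 62.9% for the inhibitory receptors. At least 2 UMIs of Gzmk were found in 4.97% and 31.5%, and of Gzmc or Gzmf in 6.71% of cKO. The cell cycle share was 73.5% and 69.1% at 3 UMIs and 33.1% and 22.7% at 10. Without cycling barcodes, the Gzmk comparison gave 20 genes in cKO and 122 in WT and that of Gzmc or Gzmf 57 and 120. On unthinned UMIs the latter gave 13 in cKO. The number of barcodes limits the WT values, since 66 were Cd4/Foxp3-free and 17 had under 4 Treg UMIs. In cKO the shallower barcodes, at a median of 10629 UMIs, limit the detection of low genes.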
